A study of Mus musculus with 8 samples.

Results

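The 10 genes described here are marker genes of the mast cell, basophil and eosinophil lineages, Cpa3, Mcpt8, Fcer1a, Ms4a2, Gzmb, Hdc, Prss34, Prg2, Epx and Il5ra. They were taken by name and are 10 of 34199 annotated mouse genes. Mast cells, basophils and eosinophils are granulocytes that arise from bone marrow progenitors and act in allergy and in the defence against parasites. Mast cells and basophils carry the high-affinity receptor for IgE, and when antigen crosslinks it they release histamine and granule proteases. Eosinophils store highly basic proteins and a peroxidase in their granules and depend on interleukin-5. In bone marrow, GATA factors are known to direct progenitors towards these lineages, and C/EBP factors take part in the formation of eosinophils as well as of neutrophils and monocytes.

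RNA-seq was performed on C57Bl/6 mouse granulocyte-macrophage progenitors (GMPs) carrying a Lysozyme-GFP reporter and immortalised by HOXA9 fused to the hormone-binding domain of the estrogen receptor (iGMPs). All cells grew with stem cell factor, the ligand of Kit. Uninduced cells at 0 h were kept in 150 ng/ml estradiol, which keeps HOXA9 active. CAF-1 OFF cells received 500 µM IPTG for 48 h, with estradiol, to express an shRNA against Chaf1b, a subunit of the chromatin assembly factor CAF-1. IPTG-treated control cells were taken after 48 h in IPTG, with estradiol, and the sample labels do not name their construct. HOXA9 OFF cells were kept for 48 h without estradiol. There were 2 libraries in each group. The study describes clonal lines and, for RNA-seq tracks, a pair of independent sub-clones, but the labels do not tie the replicate numbers to them. The p-values therefore measure the spread between these libraries, whatever its source. The lines are one transformed progenitor in culture, without the tissue in which mast cells and eosinophils mature.

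Libraries held 14044284 to 22423837 reads counted in genes, so 3 reads corresponded to 0.128 to 0.212 CPM, a gene's reads as a share of its library's reads with TMM scaling. Chaf1b was at 18.7 and 9.71 CPM in the CAF-1 OFF libraries, at 48.3 and 41.0 in the HOXA9 OFF libraries and between 95.1 and 102 in the other 4. The GMP label was checked on 10 GMP genes, which summed to 11150 to 15120 CPM in uninduced libraries, with Mpo at 6446 and 3986 CPM. The HOXA9 OFF libraries summed to 6352 to 8728 CPM over the same 10 genes, and in them 4 were called lower (Cd34, Ctsg, Flt3 and Kit) and 2 higher (Csf3r and Ms4a3). Of all tested genes, 22.1% were called lower and 25.2% higher there. In the CAF-1 OFF libraries 2 of the 10 were called, Elane and Csf3r, both higher, where 10.5% of all tested genes were.

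A gene was called when edgeR's quasi-likelihood test gave a Benjamini-Hochberg adjusted p (FDR) under 0.05 and the fold change was at least 1.5. Of the 10 genes, 8 passed the filter on low counts and were tested among 13080 genes. Fcer1a and Gzmb did not pass. In CAF-1 OFF against uninduced cells, 3 of the 8 were called higher (Cpa3, Mcpt8 and Il5ra), where 10.5% of all tested genes were. None of the 8 was called lower by edgeR, where 3.50% of all genes were, 0 were lower at an unadjusted p under 0.05 and DESeq2 called 0. Against the IPTG-treated control the calls fell on the same 3 genes, with 9.56% of all genes called higher and 3.20% lower. In HOXA9 OFF cells, 4 of the 8 were called higher (Hdc, Prg2, Epx and Il5ra) and 1 lower (Mcpt8), where 25.2% of all genes were called higher and 22.1% lower. The same 5 calls were made against the IPTG-treated control, with 24.6% of all genes called higher and 21.8% lower. The median log2 fold change over the 8 was 1.08 in CAF-1 OFF and 1.11 in HOXA9 OFF cells, beside 0.01 in both over all tested genes. The IPTG-treated control against uninduced cells gave 0 calls among the 8 and 0 among all genes by edgeR (0% in each direction), with 100 of 13080 genes and 0 of the 8 at an unadjusted p under 0.05. DESeq2 called 5 genes there, none of them among the 8. Both conditions were compared with the same uninduced libraries.

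Il5ra and Mcpt8 were called in both conditions, Mcpt8 in opposite directions. The proteases Cpa3 and Mcpt8 were highest in CAF-1 OFF cells, and the eosinophil granule genes Prg2 and Epx were highest in HOXA9 OFF cells. In the direct comparison of CAF-1 OFF with HOXA9 OFF, 7 of the 8 were called, 3 higher in CAF-1 OFF (Cpa3, Mcpt8 and Prss34) and 4 higher in HOXA9 OFF (Hdc, Prg2, Epx and Il5ra), where 22.2% and 21.4% of all genes were. In whole-culture RNA, more cells of a kind and more RNA in each cell cannot be told apart.

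**Figure D1:**
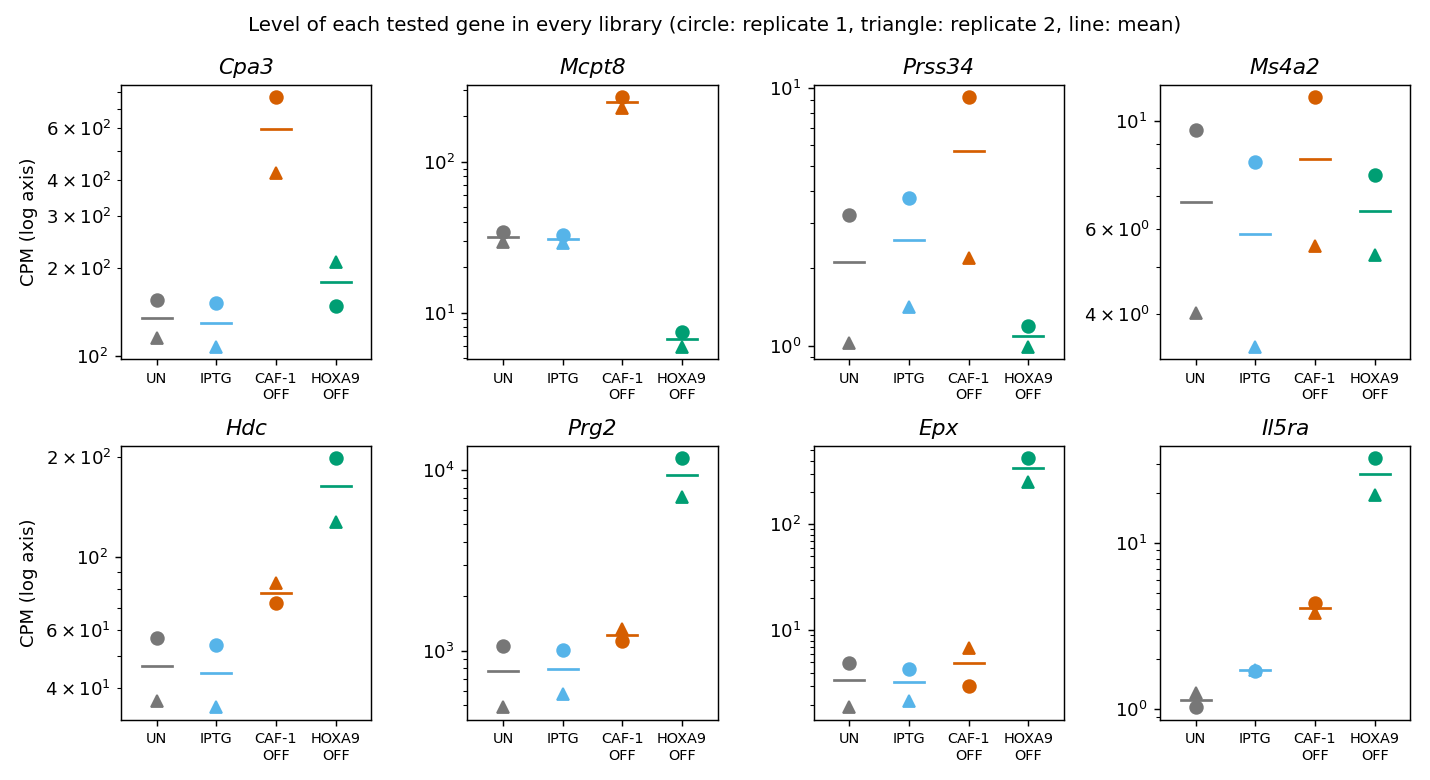
Level in CPM (log axis, scaled per panel) of the 8 tested genes in each library, for uninduced (UN), IPTG-treated control, CAF-1 OFF and HOXA9 OFF cells, with circles for replicate 1, triangles for replicate 2 and a line at the mean. Mcpt8 lies at 267 and 228 CPM in CAF-1 OFF and at 7.38 and 5.95 in HOXA9 OFF libraries, and Epx at 421 and 252 in HOXA9 OFF libraries against 6.89 or less elsewhere.

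The stretch of 120 bases before the transcription start, from RefSeq annotation of GRCm38.p6, is shown for the 3 protease genes, 2 IgE receptor genes, the eosinophil peroxidase gene and the interleukin-5 receptor gene, because the members moved in opposite directions and GATA factors are known regulators of these lineages. RefSeq tables used here held 9 of the 10 promoters, all but that of Prg2. Matches to the GATA motif, searched as AGATAA and AGATAG and also as TGATAA and TGATAG, on either strand are in capitals, and each sequence reads 5′ to 3′ on the strand of its gene.
Cpa3, chr3:20242182-20242301, minus strand: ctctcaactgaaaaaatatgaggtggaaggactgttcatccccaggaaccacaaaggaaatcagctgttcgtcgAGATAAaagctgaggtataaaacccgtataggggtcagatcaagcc
Mcpt8, chr14:56085198-56085317, minus strand: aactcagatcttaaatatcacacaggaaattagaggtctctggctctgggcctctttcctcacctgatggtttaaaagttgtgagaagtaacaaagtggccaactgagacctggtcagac
Prss34, chr17:25298274-25298393, plus strand: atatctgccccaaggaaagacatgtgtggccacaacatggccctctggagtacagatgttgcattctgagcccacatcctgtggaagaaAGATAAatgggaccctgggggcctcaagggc
Fcer1a, chr1:173227230-173227349, minus strand: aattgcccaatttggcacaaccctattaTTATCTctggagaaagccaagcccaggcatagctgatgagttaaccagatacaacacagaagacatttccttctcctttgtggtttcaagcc
Ms4a2, chr19:11623720-11623839, minus strand: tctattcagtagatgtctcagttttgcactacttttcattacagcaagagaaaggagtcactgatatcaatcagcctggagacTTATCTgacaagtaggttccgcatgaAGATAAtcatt
Epx, chr11:87875537-87875656, minus strand: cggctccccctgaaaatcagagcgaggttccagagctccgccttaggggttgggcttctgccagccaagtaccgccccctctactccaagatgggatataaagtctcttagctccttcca
Il5ra, chr6:106749038-106749157, minus strand: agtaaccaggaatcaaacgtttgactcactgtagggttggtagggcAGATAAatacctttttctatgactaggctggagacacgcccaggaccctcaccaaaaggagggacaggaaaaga

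Over the full promoter window, from 250 bases before to 50 after the start, 6 of the 9 genes held a GATA match (Cpa3, Fcer1a, Ms4a2, Hdc, Prss34 and Il5ra), where 30.2% of 27025 promoters did. The first base of the match lay 46 bases before the start in Cpa3, 31 in Prss34 and 74 in Il5ra. Ms4a2 held 3 matches, of which those beginning 37 and 11 bases before its start are shown. These letters were not in the windows of Mcpt8, Epx and Gzmb. The motif GGAAG, the core that ETS factors recognise, was in 5 of the 9 windows (Cpa3, Mcpt8, Hdc, Prss34 and Epx) and in 71.1% of all promoters. It shares no bases with the GATA letters in these windows. The genes with a GATA match included some highest in CAF-1 OFF cells (Cpa3), some highest in HOXA9 OFF cells (Hdc and Il5ra) and some with no call against uninduced cells (Ms4a2).

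Cpa3 encodes carboxypeptidase A3, a metalloprotease of mast cell granules that early mast cell and basophil progenitors also express. Its gene spans chr3:20115516-20142080 of mm9 on the minus strand. Cpa3 was at 154 and 115 CPM in uninduced libraries, at 764 and 423 in CAF-1 OFF, at 151 and 107 in the IPTG-treated control and at 148 and 209.7 in HOXA9 OFF libraries. Both CAF-1 OFF libraries lay above every other library, by a margin that was wide for replicate 1 and narrower for replicate 2. With CAF-1 depleted, Cpa3 rose 4.41-fold (log2 fold change of 2.14, SE 0.33, edgeR FDR 0.00768) and 4.59-fold against the IPTG-treated control (FDR 0.00872). Its log2 fold change in HOXA9 OFF cells was 0.41 (SE 0.32, FDR 0.297) and the groups overlapped. Leaving out uninduced replicate 1 ended the call against uninduced cells at a log2 fold change of 2.37 (FDR 0.0557), and leaving out IPTG-treated control replicate 2 ended that against the control at 1.97 (FDR 0.0711).

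Mcpt8 encodes a serine protease that is largely restricted to basophils in the mouse. The gene spans chr14:56701003-56704053 of mm9 on the minus strand, in the cluster of mast cell chymases and granzymes. It was at 34.3 and 29.5 CPM in uninduced libraries and at 32.6 and 28.9 in the IPTG-treated control. CAF-1 OFF libraries reached 267 and 228 CPM, while HOXA9 OFF libraries fell to 7.38 and 5.95. Mcpt8 was thus called in both conditions and in opposite directions, and in each the libraries did not overlap those of uninduced cells. It rose 7.75-fold with CAF-1 depleted (log2 fold change of 2.95, SE 0.15, edgeR FDR 0.000534) and was 4.79-fold lower in HOXA9 OFF cells (a log2 fold change of -2.26, SE 0.16, FDR 2.96e-05). Between CAF-1 OFF and HOXA9 OFF cells the difference was 37.2-fold (log2 fold change 5.21, SE 0.17, FDR 1.34e-05). Its log2 fold change in CAF-1 OFF cells stayed between 2.82 and 3.07 when any of the 8 libraries was left out, with the highest FDR at 0.0202.

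Prss34 encodes mast cell protease 11, a tryptase-like protease of basophils, at chr17:25435339-25437106 of mm9. It was at 3.20 and 1.03 CPM in uninduced, 3.74 and 1.41 in IPTG-treated control, 9.21 and 2.19 in CAF-1 OFF and 1.19 and 0.991 in HOXA9 OFF libraries. Replicate 1 was the higher in every group, and the CAF-1 OFF and uninduced groups overlapped. Against uninduced cells Prss34 was not called in CAF-1 OFF (log2 fold change 1.43, SE 0.79, edgeR FDR 0.231) or in HOXA9 OFF cells (-0.95, SE 0.83, FDR 0.359). The CAF-1 OFF value was 0.036 without CAF-1 OFF replicate 1 and 2.47 without uninduced replicate 1, and was called in neither fit. CAF-1 OFF exceeded HOXA9 OFF 5.20-fold (FDR 0.0431), a call that was lost without CAF-1 OFF replicate 1 (log2 fold change 1.00, FDR 0.363), without HOXA9 OFF replicate 1 (2.51, FDR 0.103) and without HOXA9 OFF replicate 2 (2.25, FDR 0.128), and also when only those 2 groups were fitted (FDR 0.0543).

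Gzmb encodes granzyme B, a protease that basophils and mast cells can hold but that is best known from cytotoxic lymphocytes, at chr14:56877693-56881097 of mm9. It had 2 reads in uninduced replicate 1, 2 in HOXA9 OFF replicate 1 and 0 in the other 6 libraries. A change in Gzmb was not detectable at this depth. Of 20 cytotoxic lymphocyte genes, 11 had no more than 3 reads in any library, among them Cd3e, Cd8a and Ncr1, and 6 were tested. Prf1, which encodes the pore-forming protein perforin, was called higher in both conditions, with a log2 fold change of 4.44 (FDR 0.00506) in CAF-1 OFF and 2.28 (FDR 0.00818) in HOXA9 OFF cells. Nkg7, a granule membrane protein of cytotoxic cells, was called higher in CAF-1 OFF cells (1.76, FDR 0.0188) and was at 8.41 and 4.91 CPM in HOXA9 OFF against 12.9 and 6.54 in uninduced libraries. Klrd1 and Klrk1, receptor genes of natural killer cells, were called higher in HOXA9 OFF cells, where Klrk1 was at 18.9 and 19.1 CPM against 0.133 and 0 in uninduced libraries. The summed level of the 20 genes was 9.28 to 14.7 CPM in uninduced, 45.5 to 50.9 in CAF-1 OFF and 32.4 to 33.5 in HOXA9 OFF libraries, most of the last from Klrk1.

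The IgE receptor is built from an alpha chain that binds IgE (Fcer1a), a signalling beta chain (Ms4a2) and a gamma chain dimer (Fcer1g) shared with other Fc receptors. Fcer1a had 0 reads in uninduced and IPTG-treated control libraries, 1 in CAF-1 OFF replicate 2 and 5 in HOXA9 OFF replicate 2. The alpha chain transcript was therefore at or near 0 in every library, whichever the condition. It lies at chr1:175151402-175157360 of mm9.

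Ms4a2, at chr19:11690013-11698209 of mm9, was at 9.61 and 4.02 CPM in uninduced, 8.26 and 3.43 in IPTG-treated control, 11.2 and 5.54 in CAF-1 OFF and 7.76 and 5.30 in HOXA9 OFF libraries. All 4 groups overlapped and replicate 1 was the higher in each. Its log2 fold change was 0.30 in CAF-1 OFF (95% interval -1.01 to 1.61, edgeR FDR 0.735) and -0.06 in HOXA9 OFF cells (-1.38 to 1.25, FDR 0.935), so changes of more than 2-fold in either direction lie within the intervals. The gamma chain gene Fcer1g, in contrast, was at 149 and 166 CPM in uninduced, 156 and 122 in CAF-1 OFF and 380 and 532 in HOXA9 OFF libraries. Fcer1g rose 2.89-fold in HOXA9 OFF cells (a log2 fold change of 1.53, SE 0.19, FDR 0.000356) and overlapped uninduced cells in CAF-1 OFF (-0.18, SE 0.19, FDR 0.535).

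Downstream of the receptor, 24 of 26 listed signalling genes were tested. With CAF-1 depleted 7 were called, all higher, where 10.5% of all genes were, with a median log2 fold change of 0.17 over the list. They included Rasgrp4, a Ras activator of mast cells (1.83, FDR 0.00582), the kinase Prkcb (1.59, FDR 0.00568) and Cd84, a SLAM family receptor (1.32, FDR 0.00611). Estradiol withdrawal gave 16 calls higher and 2 lower, where 25.2% and 22.1% of all genes were called, with a median of 1.13. Rasgrp4 rose by 4.79 on the log2 scale (FDR 1.57e-05), the adaptor Lcp2 by 3.05 (FDR 0.000256) and Cd84 by 2.58 (FDR 3.21e-05), while the kinase Fyn was lower (-1.24, FDR 0.0118), as was the phospholipase Plcg1 (-1.02, FDR 0.00284). Many of these genes serve other receptors of myeloid cells too.

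Hdc encodes histidine decarboxylase, the enzyme that makes histamine, at chr2:126419403-126445035 of mm9. It was at 56.8 and 36.8 CPM in uninduced, 54.2 and 35.1 in IPTG-treated control, 72.5 and 83.4 in CAF-1 OFF and 199 and 128 in HOXA9 OFF libraries. The 3 levels were ordered HOXA9 OFF, CAF-1 OFF and then both control groups, and no CAF-1 OFF or HOXA9 OFF library overlapped a control library. Hdc rose 3.49-fold in HOXA9 OFF cells (a log2 fold change of 1.80, SE 0.30, edgeR FDR 0.00149). In CAF-1 OFF cells the 1.67-fold difference was not called (0.74, SE 0.30, FDR 0.116), but DESeq2 called it (adjusted p = 0.045), as did a fit of only the groups compared (FDR 0.0436). HOXA9 OFF exceeded CAF-1 OFF 2.09-fold (FDR 0.0173). That call was lost without CAF-1 OFF replicate 1 (log2 fold change -0.97, FDR 0.0977), without CAF-1 OFF replicate 2 (-1.17, FDR 0.059) and without HOXA9 OFF replicate 1 (-0.72, FDR 0.0812).

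Of 13 other histamine and eicosanoid genes tested, 3 were called higher in CAF-1 OFF cells (Abp1, Alox5 and Ltc4s), where 10.5% of all genes were. After HOXA9 was switched off, 5 were called higher and 4 lower, where 25.2% and 22.1% of all genes were. Alox5ap, which presents arachidonic acid to 5-lipoxygenase, rose by 2.60 on the log2 scale (FDR 3.16e-05), the leukotriene receptor Cysltr1 by 2.00 (FDR 0.000119) and Lta4h, which makes leukotriene B4, by 1.90 (FDR 0.000238). Alox5, the gene of 5-lipoxygenase itself, was not called in HOXA9 OFF cells. It was at 0.759 and 0.396 CPM there, 0.267 and 0.0428 in uninduced and 7.26 and 15.2 in CAF-1 OFF libraries. Slc18a2, the transporter that loads histamine into granules, was lower (-1.17, FDR 0.0028), from 191 and 186 CPM in uninduced to 89.5 and 77.6 in HOXA9 OFF libraries. Ptgds (-2.16, FDR 0.0492) and the phospholipase Pla2g4a (-0.91, FDR 0.000107) were also lower. The gene of the histamine-making enzyme thus rose where the gene of the vesicle transporter fell.

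Prg2 encodes eosinophil major basic protein, the most abundant protein of the eosinophil granule core, at chr2:84820618-84823789 of mm9. It had the most reads of the 10 in every library, at 1068 and 486 CPM in uninduced, 1012 and 576 in IPTG-treated control, 1126.5 and 1311 in CAF-1 OFF and 11631 and 7112 in HOXA9 OFF libraries. Among all genes Prg2 ranked 63 and 251 by read count in the uninduced libraries, and 1 and 6 in the HOXA9 OFF libraries. Prg2 rose 12.1-fold in HOXA9 OFF cells (log2 fold change of 3.59, SE 0.46, edgeR FDR 0.000361), and the log2 fold change was 4.27 (FDR 0.00124) without uninduced replicate 1. Both CAF-1 OFF libraries lay above the uninduced ones, but the difference was not called (0.65, SE 0.41, 95% interval -0.31 to 1.61, FDR 0.297), and it ranged from 0.17 to 1.33, the latter without uninduced replicate 1, when 1 library was left out. HOXA9 OFF exceeded CAF-1 OFF 7.69-fold (FDR 0.00111).

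Epx encodes eosinophil peroxidase, at chr11:87677502-87689038 of mm9. It was at 4.89 and 1.88 CPM in uninduced, 4.31 and 2.15 in IPTG-treated control, 3.00 and 6.89 in CAF-1 OFF and 421 and 252 in HOXA9 OFF libraries. Both HOXA9 OFF libraries stood far above the other 6, which overlapped each other. Epx rose 99.6-fold in HOXA9 OFF cells (a log2 fold change of 6.64, SE 0.58, edgeR FDR 6.59e-05), the largest change of the 8 in any comparison with uninduced cells. Without uninduced replicate 1 the log2 fold change was 7.48 (FDR 0.000795). In CAF-1 OFF cells its log2 fold change was 0.55 (SE 0.57, 95% interval -0.77 to 1.88, FDR 0.521), and HOXA9 OFF exceeded CAF-1 OFF 67.9-fold (FDR 0.000132), where the log2 fold change of CAF-1 OFF against HOXA9 OFF was -6.08 with all libraries and -6.81 without CAF-1 OFF replicate 2.

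Il5ra encodes the alpha chain of the interleukin-5 receptor, which sets eosinophil progenitors apart from other progenitors, at chr6:106660378-106695103 of mm9. It was at 1.02 and 1.24 CPM in uninduced, 1.69 and 1.72 in IPTG-treated control, 4.31 and 3.76 in CAF-1 OFF and 32.3 and 19.4 in HOXA9 OFF libraries. The groups did not overlap and were ordered in this way, the lowest pair on 23 and 29 reads. Il5ra was called higher in both conditions, 3.55-fold in CAF-1 OFF (log2 fold change 1.83, SE 0.31, edgeR FDR 0.0103) and 22.7-fold in HOXA9 OFF cells (4.51, SE 0.32, FDR 2.96e-05). HOXA9 OFF exceeded CAF-1 OFF 6.40-fold (FDR 0.000235), and the step from uninduced to IPTG-treated control was not called (0.59, SE 0.32, FDR 1). The CAF-1 OFF call was lost without uninduced replicate 1 (1.70, FDR 0.0776) and without CAF-1 OFF replicate 2 (1.90, FDR 0.0569). Against the IPTG-treated control Il5ra was 2.36-fold higher in CAF-1 OFF cells (FDR 0.0317), a call lost without uninduced replicate 2 (1.22, FDR 0.0501), CAF-1 OFF replicate 1 (1.12, FDR 0.11), CAF-1 OFF replicate 2 (1.32, FDR 0.124), IPTG-treated control replicate 1 (1.21, FDR 0.141) or IPTG-treated control replicate 2 (1.25, FDR 0.14).

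**Figure D2:**
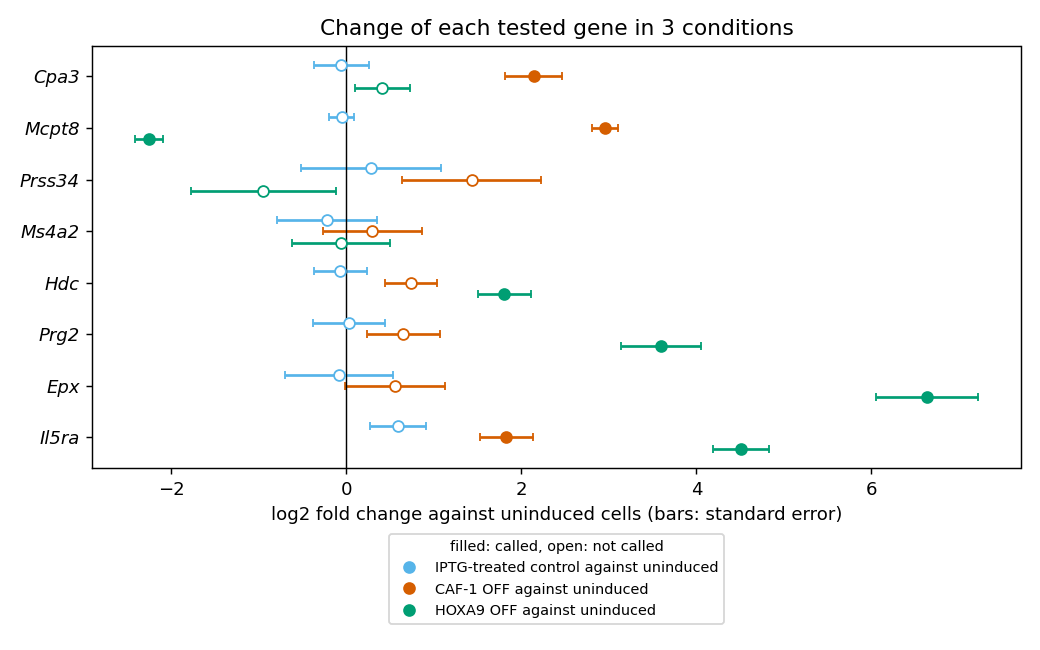
Log2 fold change against uninduced cells, with standard error bars, of the 8 tested genes in IPTG-treated control, CAF-1 OFF and HOXA9 OFF cells, filled where called. Cpa3, Mcpt8 and Il5ra are filled in CAF-1 OFF cells, Hdc, Prg2, Epx and Il5ra to the right and Mcpt8 to the left in HOXA9 OFF cells, and no point is filled in the IPTG-treated control.

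Per kilobase of transcript, the order of levels among the genes changed with the condition. In uninduced cells the mean level per kilobase was 927 CPM for Prg2, 92.7 for Cpa3, 37.3 for Mcpt8, 19.55 for Hdc, 2.85 for Ms4a2, 1.74 for Prss34, 1.26 for Epx and 0.343 for Il5ra. In CAF-1 OFF cells Cpa3 reached 409 and Mcpt8 289 CPM per kilobase, and both stayed under Prg2 at 1454. In HOXA9 OFF cells Prg2 stood at 11180, Epx at 125, Cpa3 at 123 and Hdc at 68.3 CPM per kilobase, with Mcpt8 at 7.79. Epx thus moved from below Ms4a2 to the level of Cpa3.

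The wider eosinophil list moved with Prg2 and Epx in HOXA9 OFF cells. Of 12 tested genes of the list, 11 were called higher, where 25.2% of all genes were, with a median log2 fold change of 4.22. They included the eosinophil-associated ribonuclease gene Ear2 (8.65, SE 0.82, FDR 9.02e-05), the adenosine receptor Adora3 (5.30, SE 0.41, FDR 3.98e-05) and the lipoxygenase Alox15 (3.36, SE 0.42, FDR 0.000346). Ear6 had 2 and 0 reads in uninduced and 1661 and 690 in HOXA9 OFF libraries, and Ear1 had 4 and 0 against 175 and 17. The Ear genes are close copies of one another, so how their reads were divided is uncertain. Ccr3, the eotaxin receptor of mature eosinophils, had 1 and 0 reads in uninduced and 56 and 31 in HOXA9 OFF libraries. Ear1, Ear6 and Ccr3 had no more than 7 reads in any library outside HOXA9 OFF. They passed the filter on low counts through the HOXA9 OFF libraries, so the filter favoured a call higher. The count of 11 and the median of 4.22 include these genes.

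In CAF-1 OFF cells 5 of the 12 eosinophil genes were called, all higher, where 10.5% of all genes were, with a median of 1.32. Alox15 rose by 2.76 on the log2 scale (FDR 0.00747), from 6.36 and 4.10 CPM to 22.1 and 48.5. Cebpe, a C/EBP factor needed for the maturation of both neutrophils and eosinophils, rose by 1.83 (FDR 0.0126) in CAF-1 OFF and by 1.86 (FDR 0.00215) in HOXA9 OFF cells. Adora3 rose by 1.41 (FDR 0.0409), Siglec5 (Siglec-F in current naming) by 0.95 (FDR 0.0174) and Rnase12 was called with at most 11 reads in a CAF-1 OFF library. Ear2 and Ear6 had no more than 13 reads in either CAF-1 OFF library.

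The basophil list had 17 tested genes, of which CAF-1 OFF cells showed 6 higher and 1 lower, where 10.5% and 3.50% of all genes were. The median log2 fold change over the list was 1.00. Cyp4f18, a leukotriene hydroxylase, rose by 2.71 (FDR 0.00245), Itga2b, the integrin chain CD41, by 2.50 (FDR 0.0019) and Ifitm1, an interferon-induced membrane protein, by 1.55 (FDR 0.00198). Cd69 was lower (-0.86, FDR 0.0108). Itga2b was also called higher in HOXA9 OFF cells. It was at 14.9 and 17.5 CPM in uninduced, 109 and 74.5 in CAF-1 OFF and 114 and 93.2 in HOXA9 OFF libraries. The counts in HOXA9 OFF cells were 11 higher and 3 lower, where 25.2% and 22.1% of all genes were, with a median of 2.38. Cd200r3, an activating receptor of mast cells and basophils, rose by 5.56 (FDR 0.00022), Cyp4f18 by 5.46 (FDR 1.55e-05) and the chemokine Ccl4 by 4.93 (SE 1.07, FDR 0.00528), while Cd69 (-2.78, FDR 1.67e-05), Il6 (-2.10, FDR 0.0152) and Ifitm1 (-0.76, FDR 0.00185) were lower. Most of the Ccl4 level came from HOXA9 OFF replicate 2, at 101 CPM against 7.65 in replicate 1 and 2.05 and 1.497 in uninduced libraries. The cytokine gene Il4 had 0 reads in both uninduced libraries and 32 and 19 in HOXA9 OFF libraries, at least 10.0-fold higher against a floor of 3 reads per library. Ifitm1 was thus called in opposite directions in the 2 conditions, as Mcpt8 was.

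The mast cell list was split between genes at or near 0 and genes that were tested. Of its 23 genes, 12 had no more than 3 reads in any library, among them the tryptase gene Tpsab1, the chymase genes Mcpt1, Mcpt2, Mcpt4 and Mcpt9 and the receptor genes Mrgprb1 and Mrgprb2. Of the 11 tested, 1 was called in CAF-1 OFF cells (Adora3, higher), where 10.5% of all genes were called higher. In HOXA9 OFF cells 3 were called higher (Adora3, Mitf and Ndst2) and 2 lower (Kit and Slc18a2), where 25.2% and 22.1% of all genes were. The counts of this list were thus close to the shares over all genes. Mitf, a transcription factor of mast cells and melanocytes, was at 3.07 and 1.75 CPM in uninduced and 20.6 and 28.7 in HOXA9 OFF libraries (log2 fold change 3.35, FDR 0.000137). Kit, the receptor for stem cell factor, fell from 637 and 612 to 198 and 167 CPM (-1.78, FDR 4.08e-05), and in CAF-1 OFF cells its log2 fold change was 0.23 (FDR 0.261).

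**Figure D3:**
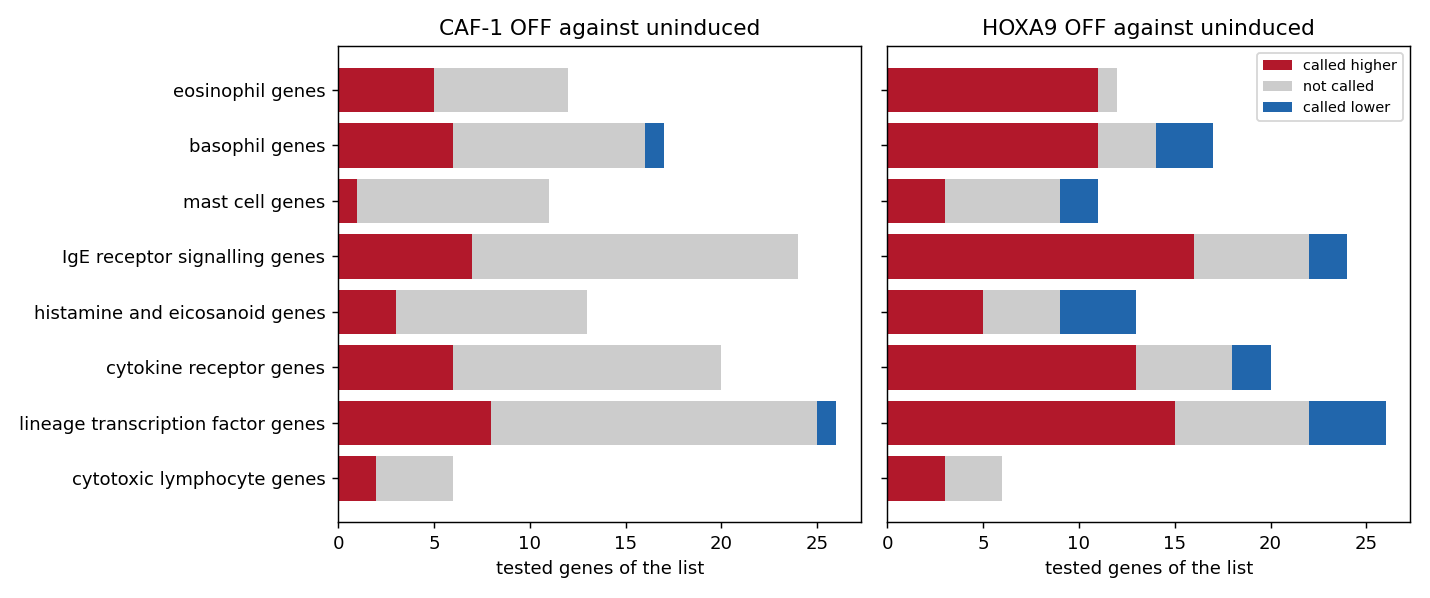
Number of tested genes of 8 lists called higher, not called or called lower against uninduced cells, in CAF-1 OFF (left) and HOXA9 OFF cells (right). The eosinophil list has 5 of 12 genes called higher in CAF-1 OFF and 11 of 12 in HOXA9 OFF cells, and the mast cell list 1 of 11 and 3 of 11, beside 10.5% and 25.2% of all tested genes. Ear1, Ear6 and Ccr3 of the eosinophil list passed the filter on low counts through the HOXA9 OFF libraries.

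Interleukin-5, interleukin-3 and GM-CSF signal through a shared beta chain, so the partners of Il5ra were examined next. Csf2rb, the beta chain gene, was at 136 and 140 CPM in uninduced, 471 and 649 in CAF-1 OFF and 662 and 660 in HOXA9 OFF libraries. It rose by 2.02 (SE 0.16, FDR 0.0014) and 2.26 (SE 0.16, FDR 2.96e-05) on the log2 scale, and its near copy Csf2rb2, the interleukin-3 specific chain, by 2.95 (FDR 0.00198) and 4.04 (FDR 2.29e-05). Reads of these 2 close copies may be partly exchanged between them. The GM-CSF receptor alpha chain gene Csf2ra rose by 2.61 in HOXA9 OFF cells (FDR 1.19e-05), and the interleukin-3 receptor alpha chain gene Il3ra by 1.30 in CAF-1 OFF cells (FDR 0.00985). Il3ra was also called higher in HOXA9 OFF cells, at 12.1 and 16.0 CPM against 9.03 and 7.01 in uninduced libraries. Over the 20 cytokine receptor and signalling genes, CAF-1 OFF cells had 6 calls, all higher, where 10.5% of all genes were. HOXA9 OFF cells had 13 higher and 2 lower, where 25.2% and 22.1% of all genes were.

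Transcription factor genes of these lineages numbered 26 in the test. After CAF-1 depletion 8 were called higher and 1 lower, where 10.5% and 3.50% of all genes were. After HOXA9 inactivation 15 were called higher and 4 lower, where 25.2% and 22.1% of all genes were. Gfi1b, a repressor protein that acts in the erythroid, megakaryocyte and basophil lineages, showed the largest rise in CAF-1 OFF cells, from 0.756 and 0.385 to 18.0 and 35.2 CPM (log2 fold change 5.53, SE 0.61, FDR 0.00324). It was followed by Ikzf2 (2.62, FDR 0.00214) and Id1 (2.03, FDR 0.00316), and Meis1, a partner of HOXA9, was lower (-0.89, FDR 0.0333). Gfi1b, Ikzf2 and Id1 were also called higher in HOXA9 OFF cells, with Gfi1b at 5.32 and 3.17 CPM. In HOXA9 OFF cells Irf4 (6.82, FDR 3.38e-05), Id2 (5.26, FDR 2.44e-05) and Mitf rose most, and Meis1 (-2.35, FDR 0.000142), Zfpm1, a GATA cofactor (-2.26, FDR 1.67e-05), and Tal1 (-1.99, FDR 6.6e-05) were lower.

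Gata2, a factor of progenitors, mast cells and basophils, was at 83.1 and 76.3 CPM in uninduced, 115 and 112 in CAF-1 OFF and 64.2 and 60.9 in HOXA9 OFF libraries. Its groups did not overlap, and its changes had an FDR of 0.0174 in CAF-1 OFF (log2 fold change 0.51, SE 0.10) and 0.0222 in HOXA9 OFF cells (-0.35, SE 0.11), but both were under 1.5-fold. Gata1, a factor of eosinophils and red cell precursors, was at 5.29 and 1.84 CPM in uninduced, 9.31 and 9.61 in CAF-1 OFF and 19.6 and 10.8 in HOXA9 OFF libraries. Gata1 rose 4.26-fold in HOXA9 OFF cells (a log2 fold change of 2.09, SE 0.57, FDR 0.0145) and was not called in CAF-1 OFF cells (1.41, SE 0.56, FDR 0.113).

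The chromosomal neighbours of the 10 genes were compared next, taking protein-coding genes within 200 kb of each. Over all 10 loci there were 100 other genes, of which 55 were tested. CAF-1 OFF cells had 12 higher and 3 lower, and HOXA9 OFF cells showed 22 higher and 12 lower, beside 10.5% and 3.50% and then 25.2% and 22.1% of all tested genes. In CAF-1 OFF cells 7 of the 12 higher calls came from the Ms4a2 locus. Around Mcpt8 the neighbouring chymase and granzyme genes Mcpt1, Mcpt2, Mcpt4, Mcpt9, Gzmc, Gzmf, Gzmg and Gzmn had 0 reads in every library, and Gzme and Gzmd at most 4. The nearest gene on the other side, Ctsg, which encodes neutrophil cathepsin G and starts at -17.4 kb, had a log2 fold change of -0.11 in CAF-1 OFF (FDR 0.635) and -1.90 in HOXA9 OFF cells (FDR 4.61e-05). The chymase gene Cma1, at 141 kb, was called in neither condition (-0.25, FDR 0.847, and -0.14, FDR 0.891).

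Next to Prg2, its paralog Prg3 starts 7.74 kb downstream. Prg3 was at 276 and 207 CPM in uninduced, 301 and 388 in CAF-1 OFF and 932 and 678 in HOXA9 OFF libraries. It rose 3.33-fold in HOXA9 OFF cells (a log2 fold change of 1.74, SE 0.21, FDR 0.000279), and in CAF-1 OFF cells its log2 fold change of 0.51 was not called (FDR 0.113), as that of Prg2 was not. Other genes near Prg2 went both ways in HOXA9 OFF cells, with Aplnr (6.63, FDR 5.02e-05) among the higher and Rtn4rl2 (-6.65, FDR 4.89e-05) among the lower. Epx lies beside 2 related peroxidase genes. Mpo, the neutrophil enzyme, had a log2 fold change of -0.76 (FDR 0.0506) and Lpo one of -0.32 (FDR 0.537) in HOXA9 OFF cells, where Epx rose 99.6-fold.

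Ms4a2 was called in neither condition, while most of its tested neighbours were. Of 10 tested neighbours, 7 rose in CAF-1 OFF cells, while 7 rose and 1 fell in HOXA9 OFF cells. Ms4a6d, 18.9 kb downstream, rose by 3.64 (FDR 0.00724) and 4.47 (FDR 0.000328), and Ms4a4c by 5.72 (FDR 0.00418) and 7.27 (FDR 9.27e-05) on the log2 scale. Ms4a4b (4.94 and 4.46), Ms4a6c (1.38 and 3.95), Ms4a6b (1.24 and 2.67) and Stx3 (0.65 and 1.67) were called higher in both conditions. Oosp1 was called in CAF-1 OFF cells only (2.79, FDR 0.00677), and Ms4a3, at -17.1 kb, in HOXA9 OFF cells only (1.19, FDR 0.0117), in each case with no test of the difference. The Ms4a4 and Ms4a6 genes are close copies within their groups, so reads could be divided unevenly among them.

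**Figure D4:**
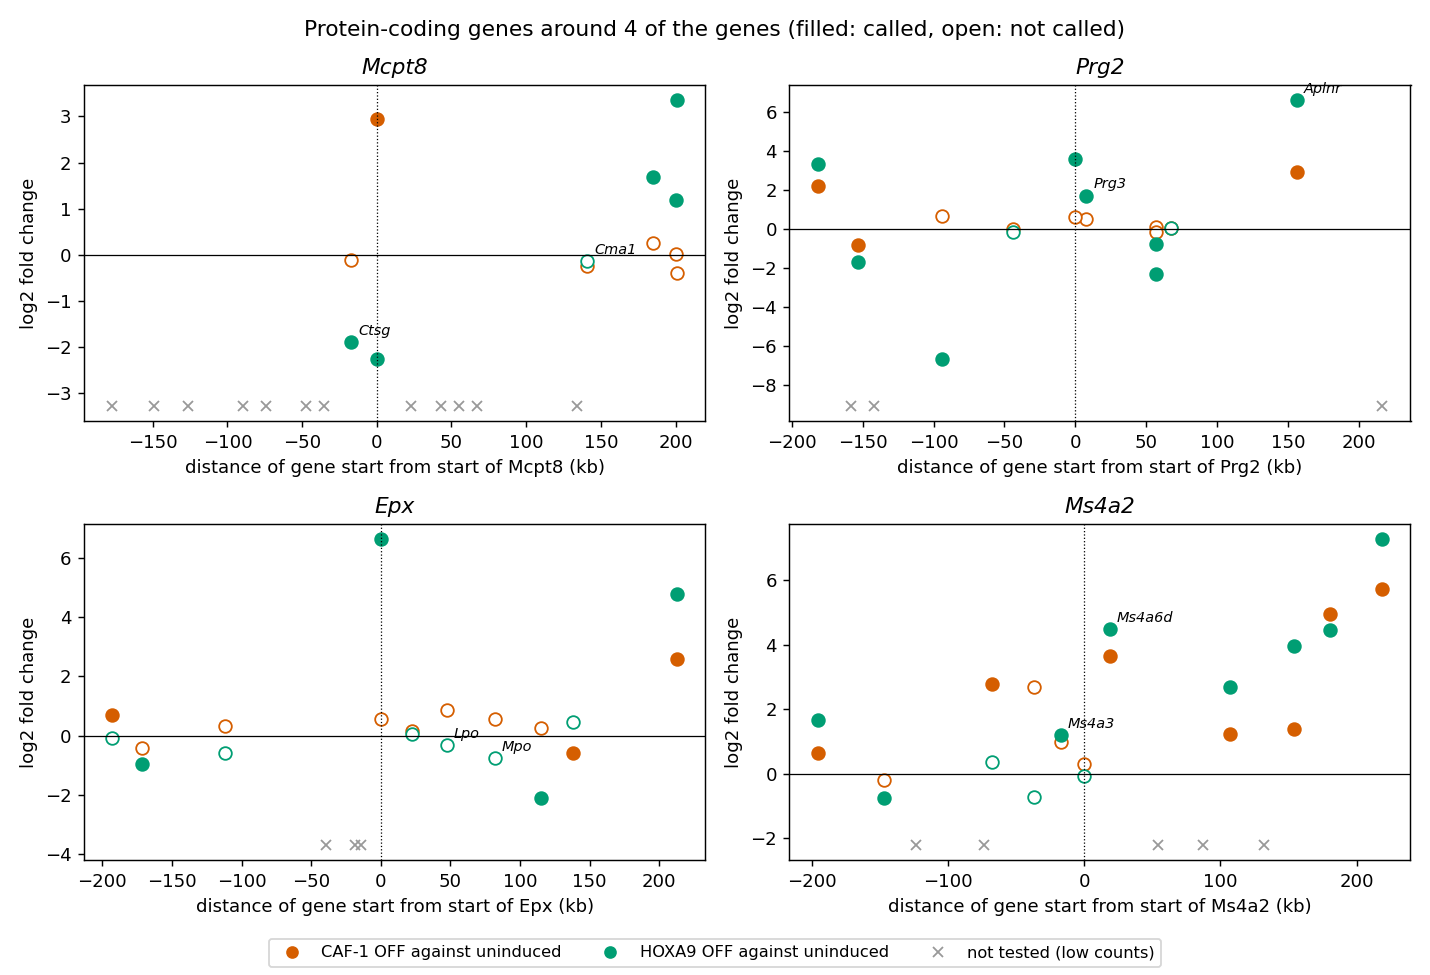
Log2 fold change against uninduced cells of tested protein-coding genes within 200 kb of Mcpt8, Prg2, Epx and Ms4a2, by distance of their start from the start of the named gene (positive downstream), with crosses for untested genes and filled points for called ones. Mcpt8 alone is filled above 0 for CAF-1 OFF cells in its panel, Epx stands at 6.64 over Lpo at -0.32 and Mpo at -0.76 in HOXA9 OFF cells, and Ms4a2 is open beside the filled Ms4a6d.

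Finally, the genes whose log2 level followed each tested gene most closely over the 8 libraries were listed. These 8 libraries form 4 groups, so a high correlation mostly says that the group levels are ordered alike, and it is given as a description. Mcpt8 was followed most closely by Btla, an inhibitory receptor of lymphocytes (Pearson r = 0.993), Ermp1 (0.993) and H1fx (0.991), and Cpa3 by Slc24a3 (0.968), Pbx3 (0.953) and Tnnt1 (0.942). Btla was at 32.7 and 33.0 CPM in uninduced, 84.9 and 75.8 in CAF-1 OFF and 13.5 and 15.0 in HOXA9 OFF libraries, the same order as Mcpt8. Prg2 was followed by Mical1 (0.998), Flot1 (0.998) and Ppp1r18 (0.996), Epx by Adap1 and Lair1 (both 0.998), Hdc by Hsd11b1, Trem3 and Ppt1 (0.997, 0.997 and 0.996), and Il5ra by Cd82 (0.997), Cflar (0.994) and Usp8 (0.993). Among the members themselves, r was 0.987 between Prg2 and Epx, 0.964 between Prg2 and Hdc and 0.945 between Prg2 and Il5ra, against 0.72 between Cpa3 and Mcpt8 and -0.678 between Mcpt8 and Epx. Ms4a2 followed Il1rl1, the interleukin-33 receptor of mast cells and basophils, at r = 0.95, then Zdhhc24 (0.894) and Rps10-ps1 (0.869). Prss34 was followed by 2510003E04Rik (0.914), Zfp398 (0.913) and Gng12 (0.91).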

How the data were processed

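RNA was sequenced from 8 libraries in 4 groups of 2, grouped by the sample titles. Raw read counts per gene were deposited by the authors, who used STAR and HTSeq on mm9 (named in the submitters' processing notes) after a directional library preparation. The strand setting and annotation version of the counting are not given in the sources used here, so a gene's count may include reads of an antisense partner. Coordinates come from a GENCODE M1 annotation, in which 33223 of 34199 symbols matched, and promoter sequences from RefSeq on GRCm38.p6. The 2 builds were kept apart.

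Counts were tested in R 4.3.3 with edgeR 4.0.16 (TMM scaling, filterByExpr, quasi-likelihood F test, two-sided, 1 fit over all 8 libraries, Benjamini-Hochberg adjustment over 13080 genes). CPM values use TMM-scaled library sizes. Some genes passed the filter on low counts through 1 group, so the filter favoured a call higher there. Among them were Ear1, Ear6, Ccr3, Il4 and Klrk1 through HOXA9 OFF and Alox5 through CAF-1 OFF libraries. The biological coefficient of variation was 18.9%. Replicates of each group differed by more than sampling noise (chi-square per degree of freedom 16.6 to 78.2). On simulated counts for CAF-1 OFF against uninduced, over 13080 genes, 79% of genes changed by 2 and 48% of those changed by 1 on the log2 scale were recovered. Alternatives were DESeq2 1.42.0, other scalings, no filter, stricter and looser thresholds, a replicate block and leaving out each library. Intervals cover the spread between these libraries only.

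The members and the 9 gene lists were chosen with earlier results of these data known. Named by rule were the members, up to 3 called genes per list and direction with the largest changes (mean log2 CPM 0 or more), up to 3 genes most correlated with each member (1 such gene is not reported here) among genes at a mean log2 CPM of 2 or more, called or listed neighbours within 200 kb, and Chaf1b. Genes outside that rule (Fcer1g, Gata1, Gata2, Ear1, Ear6, Ccr3, Siglec5, Rnase12, Il4, Klrk1, Klrd1 and others given with values) were chosen after their values were seen.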

Additional observations from a re-analysis of the deposited data

How the results depend on the processing

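Of 672 values recomputed for the 8 genes, 621 kept their direction and side of the threshold, 16 lost a call, 6 gained one (Hdc in CAF-1 OFF cells) and 29 changed sign, all 29 of them values that were not called. The number of genes called higher in CAF-1 OFF cells ranged from 1 to 3 when 1 library was left out, against uninduced cells (1 without uninduced replicate 1) and against the IPTG-treated control (1 without IPTG-treated control replicate 2), beside 3 with all libraries. Lone libraries were assumed to vary like the other groups. Scaling by library size alone moved the all-gene median, on the log2 scale, to -0.182 in HOXA9 OFF against uninduced cells and to 0.27 in CAF-1 OFF against HOXA9 OFF cells. The calls over all genes in HOXA9 OFF cells went from 3293 higher and 2886 lower to 2715 and 3701 with it, in CAF-1 OFF against HOXA9 OFF from 2898 and 2797 to 3949 and 2064, and in HOXA9 OFF against the IPTG-treated control from 3222 and 2856 to 2647 and 3684, with the member counts unchanged. Ms4a2 in HOXA9 OFF against the control changed sign under it, to -0.016, and Ms4a2 in HOXA9 OFF against uninduced cells changed sign under the replicate block, to 0.045.

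Samples of the same number did not deviate together throughout, so the numbers were not taken as pairs. Correlations of deviations were 0.475 between uninduced and IPTG-treated control, 0.301 between uninduced and HOXA9 OFF and 0.316 between IPTG-treated control and HOXA9 OFF. Those with CAF-1 OFF ran from -0.0443 (uninduced) to 0.0756 (HOXA9 OFF). With the number as a replicate block, 4 members instead of 3 were called higher in CAF-1 OFF cells (Hdc, FDR 0.0336 against uninduced and 0.0295 against the control), and over all genes 1602 were called higher and 521 lower against 1378 and 458.

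Leaving out 1 library changed the sign of these uncalled log2 fold changes, with their lowest and highest values. In CAF-1 OFF against uninduced cells, Ms4a2 ranged from -0.32 to 1.06 and Epx from -0.19 to 1.39. Against the IPTG-treated control, CAF-1 OFF gave -0.092 to 1.26 for Ms4a2, -0.24 to 1.99 for Prss34 and -0.11 to 1.19 for Epx. In HOXA9 OFF cells Ms4a2 ranged from -0.57 to 0.70 and Prss34 from -1.56 to 0.088 against uninduced cells, and Ms4a2 from -0.34 to 0.91 against the control. CAF-1 OFF against HOXA9 OFF gave -0.24 to 0.78 for Ms4a2. In the IPTG-treated control against uninduced cells the ranges were -0.33 to 0.17 for Cpa3, -0.16 to 0.060 for Mcpt8, -0.99 to 0.54 for Ms4a2, -0.42 to 0.28 for Hdc, -0.58 to 1.31 for Prss34, -0.43 to 0.71 for Prg2 and -0.65 to 0.76 for Epx. Fcer1a and Gzmb had at most 5 reads in any library, and changes in them were not detectable at this depth.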

Other observations

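Some mast cell genes varied more between the replicates of most groups than between the group means. Besides Ms4a2, the chymase gene Cma1 was at 5.21 and 1.58 CPM in uninduced replicates 1 and 2, at 5.93 and 1.35 in the IPTG-treated control, at 3.31 and 2.40 in CAF-1 OFF and at 4.23 and 1.93 in HOXA9 OFF libraries. The tryptase gene Tpsb2 had 19 and 1 reads in uninduced, 19 and 0 in IPTG-treated control, 11 and 0 in CAF-1 OFF and 21 and 10 in HOXA9 OFF libraries. Il1rl1 was at 10.8 and 3.59, 10.9 and 4.29, 16.5 and 6.89, and 8.68 and 7.93 CPM in the same order of groups. Hpgds, a prostaglandin D synthase gene of the same list, went the other way in 3 of the 4 groups, at 2.18 and 12.9 CPM in uninduced, 2.75 and 11.96 in IPTG-treated control and 12.1 and 107 in HOXA9 OFF libraries, against 3.68 and 1.20 in CAF-1 OFF. Unlike the genes above, Hpgds varied more between group means than between the replicates of most groups. Its mean was 59.5 CPM in HOXA9 OFF and 2.44 in CAF-1 OFF cells, and it was called lower in CAF-1 OFF than in HOXA9 OFF cells. These 4 genes were chosen after their values were seen.

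Of the 8 tested members, 7 were higher in replicate 1 than in replicate 2 in every group but CAF-1 OFF, where 5 were, beside 49.3% to 54.2% of all tested genes per group. The median log2 difference of the 8 between replicates was 0.88 in uninduced, 0.72 in IPTG-treated control, 0.59 in HOXA9 OFF and 0.21 in CAF-1 OFF cells. The study describes independent sub-clones for its RNA-seq tracks, and the labels do not say whether the replicate numbers mark them. Their part in these differences was not tested.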
